A study of Mus musculus with 2 samples.

Results

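The CNNM family and the other magnesium channels and transporters of the kidney were examined as a group of 10 genes, picked by name, not by a cut on measured values, though with earlier results of these arrays known: *Cnnm1*, *Cnnm2*, *Cnnm3*, *Cnnm4*, *Trpm6*, *Trpm7*, *Slc41a1*, *Slc41a3*, *Magt1* and *Mrs2*. All gene probes of the array that carry these names were taken, which gave 12 probes among 39416 and 10 genes among 31821 gene names with a value. The arrays compared kidneys of *Cnnm2*fl/fl;*Six2-Cre* animals, called knockout here, with kidneys of *Cnnm2*+/+;*Six2-Cre* animals, called control, all 2 months old. Both genotypes were hybridized together on each of 2 arrays, with the knockout labeled by Cy5 and the control by Cy3 on array 1 and the reverse on array 2. Both genotypes carried the *Six2-Cre* transgene, so they differed in the floxed *Cnnm2* alleles and not in the presence of Cre. *Six2* marks the progenitor cells that form the nephron, whereas the collecting duct, vessels and stroma arise from other cells, so a whole kidney of this genotype keeps cells in which Cre was not active. The number of mice behind each RNA and their sex are not given in the sources used here. The exchange of dyes was taken to repeat the labeling of the same RNA, which leaves 1 replicate per genotype and no test of the genotypes against each other. Each SD below is the spread of the 2 arrays and covers labeling and hybridization only.

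Magnesium is filtered in the glomerulus and is taken back mostly along the thick ascending limb, where it passes between the cells. The distal convoluted tubule (DCT) sets the final amount by transport through the cells: the channel TRPM6, alone or together with its close relative TRPM7, lets magnesium in from the lumen, and basolateral proteins of the CNNM family are thought to take part in its extrusion to the blood. SLC41A1 and SLC41A3 are related carriers tied to sodium-dependent magnesium extrusion, MAGT1 is a subunit of the oligosaccharyltransferase that has also been tied to magnesium uptake, and MRS2 is the magnesium channel of the inner mitochondrial membrane.

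Each gene of the group was read by oligonucleotides of 60 bases, which fix what part of a transcript the values refer to. The first 30 bases of the probes for the genes that were lower in the knockout on both arrays are shown here, 5′ to 3′ as the array's design gives them, followed by stretches of both *Cnnm3* probes, since they gave unlike values. Capitals in the first *Cnnm3* probe mark bases that also occur in probes of other genes.
*Cnnm2*: tgcccggtgggtgtcgctgtcgaacttgat
*Trpm6*: gccacttggagtagaatgctgtgcactaac
*Slc41a3*: gaagatgctgaggaaggagcctattggtgc
*Cnnm3* probe 1, bases 6 to 35: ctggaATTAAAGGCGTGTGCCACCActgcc
*Cnnm3* probe 2: tgccacctctgtagacccaagtaactgctg
On the mm9 build, the *Cnnm2* probe lies at chr19:46953011-46953070, the *Trpm6* probe at chr19:18966941-18967000 and the *Slc41a3* probe at chr6:90596084-90596143. The *Cnnm3* probes lie at chr1:36585020-36585079 (probe 1) and chr1:36583700-36583759 (probe 2). An annotation of this build was not used here, so the exon or untranslated region that holds each probe is not given. The design annotates the *Cnnm2* probe to 2 RefSeq transcripts. The deleted part of *Cnnm2* is not given in the sources used here, and whether the probe reads inside it is therefore not known.

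The values below are processed signals of the scanner software, in its own units, and log2 ratios of knockout over control computed from them. Signals well above background were found for all 10 genes in each genotype, and 0 of the 12 probes were saturated. The genes tested were the 19707 whose probe exceeded background clearly on array 1 and array 2 in at least 1 and the same genotype, and 62.6% to 68.0% of the spots of a channel did so. The log2 ratios of array 1 and array 2 had a correlation of -0.51 across all genes tested. That correlation is across genes, which are not independent replicates, and its sign is opposite to that of a difference shared by both arrays. A ratio on a single array thus holds more than the genotype, and the mean over the arrays, in which a constant dye effect cancels, was used for each gene. Over all genes tested, the SD of that mean was 0.227 on the log2 scale, while the SD of the contrast between the dyes was 0.398.

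*Cnnm2*, the targeted gene, was read at 626 in the knockout and 4620 in the control on array 1, and at 591 and 3247 on array 2. The knockout channel was the lower on both arrays, by far more than the 2 readings of either genotype differed from each other. The knockout level was thus 13.6% of the control on array 1 and 18.2% on array 2. The mean log2 ratio was -2.67 ± 0.30 (SD of 2 arrays), which is 6.36-fold lower in the knockout, or 15.7% of the control. Of the 19707 genes tested, 3 had a lower mean, and no other gene was at least as low on each array as the smaller of the *Cnnm2* differences. *Cnnm2* RNA was still well above background in the knockout, and in which cells the remaining RNA was made was not measured. In whole kidney RNA, fewer cells of a type and less RNA per cell cannot be told apart, and this holds for every value below.

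*Trpm6*, the apical magnesium channel of the DCT, was read at 447 in the knockout and 1051 in the control on array 1, and at 312 and 931 on array 2. Both knockout readings were below both control readings. The knockout level was 42.5% of the control on array 1 and 33.6% on array 2. The mean log2 ratio was -1.40 ± 0.24 (SD of 2 arrays), or 2.65-fold lower in the knockout. There were 27 genes of 19707 with a lower mean, and 11 genes, *Trpm6* included, were lower by 1.23 or more on each of the arrays. Array 2 gave the larger difference for *Trpm6* and array 1 the larger one for *Cnnm2*, and with 2 arrays an effect of the dyes and other variation between the arrays cannot be told apart.

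*Slc41a3*, a carrier of the SLC41 family, was read at 171 in the knockout and 232 in the control on array 1, and at 139 and 209 on array 2. Both knockout readings were again below both control readings, although the difference was smaller than for *Cnnm2* and *Trpm6*. The mean log2 ratio was -0.51 ± 0.11 (SD of 2 arrays), so the knockout was at 70.3% of the control. A lower mean was found for 356 of 19707 genes (1.81%), and 168 genes were lower by 0.43 or more on each array. The central 95% of all genes tested lay between -0.44 and 0.41, and *Slc41a3* was outside this range, as were *Cnnm2* and *Trpm6*. This value depended on the correction of background and dyes, which these alternatives change together: it was -0.22 with a normexp correction (offset of 50) and loess, and -0.39 with loess alone.

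**Figure D1:**
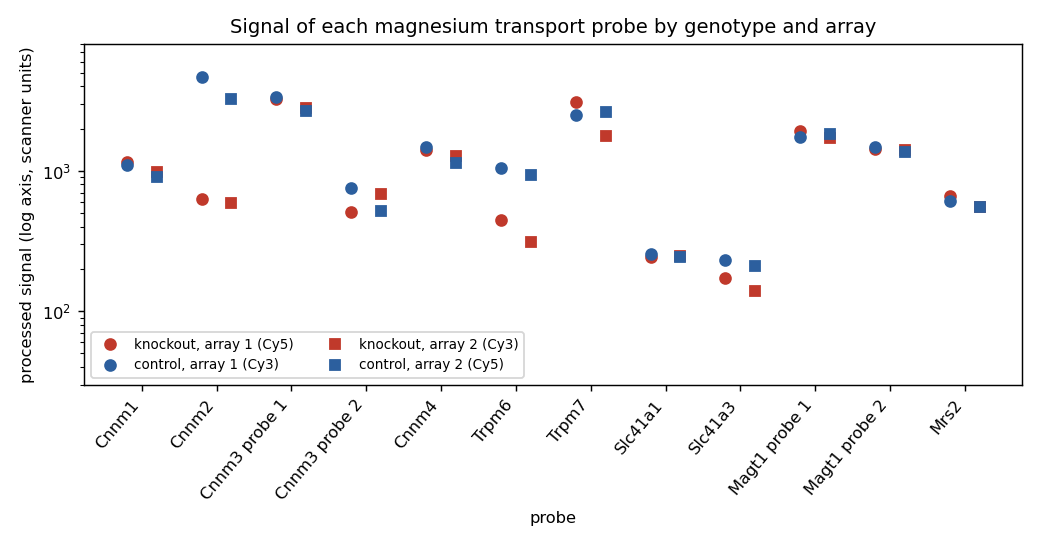
Processed signal (log axis, scanner units) of the 12 probes of the 10 magnesium transport genes, with the knockout in red and the control in blue, circles for array 1 and squares for array 2, each point 1 channel of 1 array. Both knockout points lie below both control points for *Cnnm2*, *Trpm6* and *Slc41a3*, while for *Trpm7* the order of the genotypes changes between the arrays, and signals of different probes are not comparable as levels.

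Of the other family members, *Cnnm4*, a basolateral magnesium extruder of the intestine, was read at 1407 in the knockout and 1472 in the control on array 1, and at 1271 and 1132 on array 2. The arrays gave opposite directions, and the mean log2 ratio was 0.05 ± 0.16 (SD of 2 arrays). *Cnnm1* was read at 1152 in the knockout and 1108 in the control on array 1, and at 977 and 896 on array 2. It was slightly higher in the knockout on both arrays, with a mean log2 ratio of 0.09 ± 0.05 (SD of 2 arrays), and 51.5% of all genes tested had a mean at least as large in size. None of the remaining CNNM genes was at least 2-fold higher in the knockout. Only 0.315% of all genes tested were, so this does not set the family apart.

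*Cnnm3* was read by 2 probes. Probe 1 gave 3223 in the knockout and 3376 in the control on array 1, and 2789 and 2664 on array 2. Its mean log2 ratio was -0.00045 ± 0.094 (SD of 2 arrays). Probe 2 gave 505 and 754 on array 1, and 685 and 517 on array 2, and its mean was -0.09 ± 0.69 (SD of 2 arrays). The means of both probes lay close together, 0.086 apart, whereas their spread over the arrays did not, since probe 2 was lower with the Cy5 dye in both genotypes. The median difference between the probes of a gene was 0.097 over the 3296 genes read by 2 probes. Probe 1 is the brighter and stands for the gene here, but 5 probes of 5 other genes share a run of 20 bases with it, and 4 of them hold the run shown in capitals above. Binding of their RNA to this probe was not tested. Of those 5 genes, 4 were well above background, with mean log2 ratios of -0.04 to 0.15. The remaining 11 probes of the group shared no run of 20 bases with a probe of another gene.

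*Trpm7*, a broadly expressed channel kinase that can join with TRPM6, was read at 3090 in the knockout and 2493 in the control on array 1, and at 1783 and 2635 on array 2. It was higher in the knockout on array 1 and lower on array 2, so the genotypes overlapped. The mean log2 ratio was -0.13 ± 0.62 (SD of 2 arrays), and its contrast between the dyes, 0.44, was larger than its mean. A dye contrast of at least this size was found for 20.2% of all genes tested. The pair of channel genes therefore gave unlike values in the same RNA: a difference of the same sign on both arrays for *Trpm6*, and no settled direction for *Trpm7*. Whether they differ from each other was not tested, since each genotype had 1 replicate.

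*Slc41a1* was read at 243 in the knockout and 257 in the control on array 1, and at 248 and 242 on array 2. Its mean log2 ratio was -0.02 ± 0.08 (SD of 2 arrays), with opposite directions on the arrays, while its relative *Slc41a3* was lower on both. *Magt1* probe 1 was read at 1911 in the knockout and 1751 in the control on array 1, and at 1702 and 1830 on array 2. *Magt1* probe 2 gave 1429 and 1485 on array 1, and 1410 and 1364 on array 2. The mean log2 ratios of these probes were 0.01 ± 0.16 and -0.0036 ± 0.073 (SD of 2 arrays), only 0.014 apart, and each probe gave opposite directions on the arrays. Probe 2 of *Magt1* spans 2765 genomic bases (chrX:103166784-103169548) with its 60 bases, and so reads across a gap in the genome.

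*Mrs2*, which acts in mitochondria and not at the cell surface, was read at 660 in the knockout and 614 in the control on array 1, and at 551 and 549 on array 2. Its mean log2 ratio was 0.06 ± 0.07 (SD of 2 arrays). The readings of array 2 were nearly equal, and 68.8% of all genes tested had a mean at least as large in size.

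**Figure D2:**
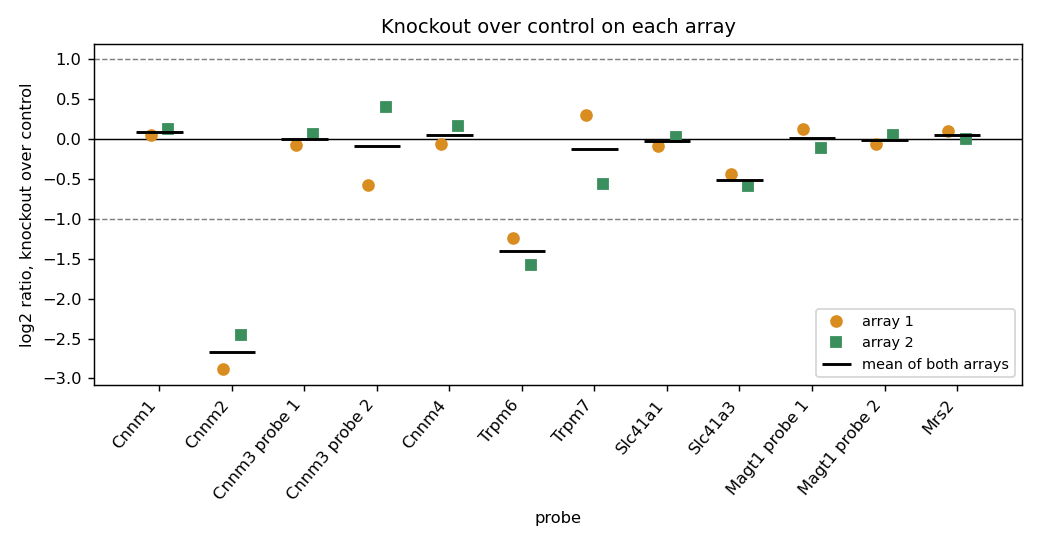
Log2 ratio of knockout over control for each of the 12 probes on array 1 (circles) and array 2 (squares), with the mean of both arrays as a bar and dashed lines at a 2-fold difference. *Cnnm2* and *Trpm6* lie beyond 2-fold lower on each array, *Slc41a3* is lower on both at a mean of -0.51, and *Trpm7* and *Cnnm3* probe 2 have arrays on opposite sides of 0.

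Of the 10 genes, 2 (*Cnnm2* and *Trpm6*) had a mean at least 2-fold lower with the same direction on both arrays, where 0.284% of all genes tested (56 genes) did. None of the 10 was at least 2-fold higher, where 0.315% of all genes tested (62 genes) were. At any size, 3 of the 10 genes (*Cnnm2*, *Trpm6*, *Slc41a3*) were lower on both arrays, where 15.6% of all genes tested were, and 2 (*Cnnm1*, *Mrs2*) were higher on both, where 12.1% were. The other 5 genes had opposite directions on the arrays. The median log2 ratio of the 10 genes was -0.012 against -0.0081 for all genes tested, and that of the 8 genes other than *Cnnm2* and *Trpm6* was 0.0050. The median size of the mean log2 ratio was 0.073 for the group and 0.094 for all genes tested. Apart from the 3 genes that were lower, the group thus lay within the bulk of the genes measured. The methods' t-test, which takes the arrays as replicates, put *Cnnm2*, *Trpm6* and *Slc41a3* under its unadjusted threshold of 0.1, as it did 4.99% of all genes tested. After Benjamini-Hochberg adjustment over all genes 0 of the 10 passed, with limma likewise 0 passed, and both called 0% of all genes tested. At an unadjusted p under 0.05, limma counted 2 of the 10 genes (*Cnnm2* and *Trpm6*) and 1.30% of all genes tested, and the methods' t-test 0 of the 10 and 2.47% of all.

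**Figure D3:**
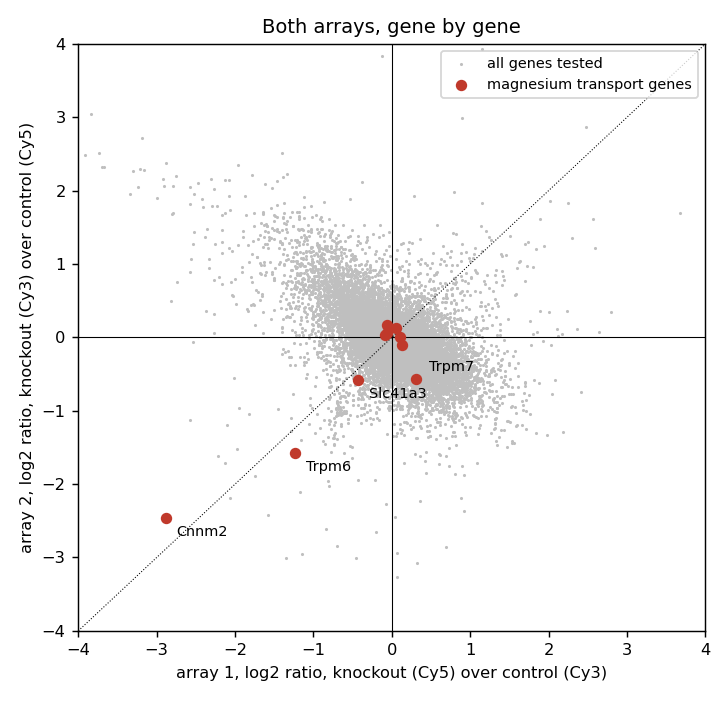
Log2 ratio of knockout over control on array 1 against array 2 for the 19707 genes tested (grey; 7 lie outside the axes) with the 10 magnesium transport genes in red and a dotted line where both arrays are equal. The grey cloud slopes downward, as the correlation of -0.51 states, while *Cnnm2*, *Trpm6* and *Slc41a3* lie along the dotted line.

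The precision of a single probe on an array was read from probes that the array carries at 8 or more spots, with a signal in the range of the group (140 probes on array 1 and 143 on array 2). Between their spots the log2 ratio had a median SD of 0.034 on array 1 and 0.032 on array 2. The 95th percentile of this SD was 0.070 on array 1 and 0.062 on array 2. Each probe of the 10 genes has 1 spot per array. The differences of *Cnnm2*, *Trpm6* and *Slc41a3* were larger than both values on each array, and so were the opposite differences of *Trpm7*, *Cnnm3* probe 2 and *Magt1* probe 1. Nearly every other probe of the group also exceeded the median SD. On array 1 the smallest difference was -0.055 (*Magt1* probe 2), and on array 2 only that of *Mrs2* (0.0067) was within the median SD. Within the 95th percentile lay *Cnnm1*, *Cnnm3* probe 1, *Cnnm4* and *Magt1* probe 2 on array 1. On array 2 *Slc41a1*, *Magt1* probe 2 and *Mrs2* lay within it. Since probes with opposite directions also exceeded both values, this comparison does not set the lower genes apart from the rest of the group. The spread between mice was not measured.

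The ratios of the group were set beside those from other corrections of the background and the dyes. *Trpm6* moved to -0.98, just short of 2-fold, and *Cnnm2* to -2.34 when normexp (offset of 50) was followed by loess. With loess and no background correction *Trpm6* was at -1.27, and with subtracted background and median centring at -1.40. *Trpm6* was read before any correction at 691 in the knockout and 767 in the control on array 1, and at 325 and 1597 on array 2. On array 1, where these uncorrected signals of *Trpm6* differ little, the median uncorrected signal of all gene spots reached 157 for the knockout (Cy5) and 113 for the control, against 128 and 161 (Cy5 in the control) on array 2. *Trpm6* and *Slc41a3* were lower in the knockout under the 3 other corrections and on each array alone. The rest of the 11 alternatives reuse the scanner's values for these probes, and so could not change the direction.

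**Figure D4:**
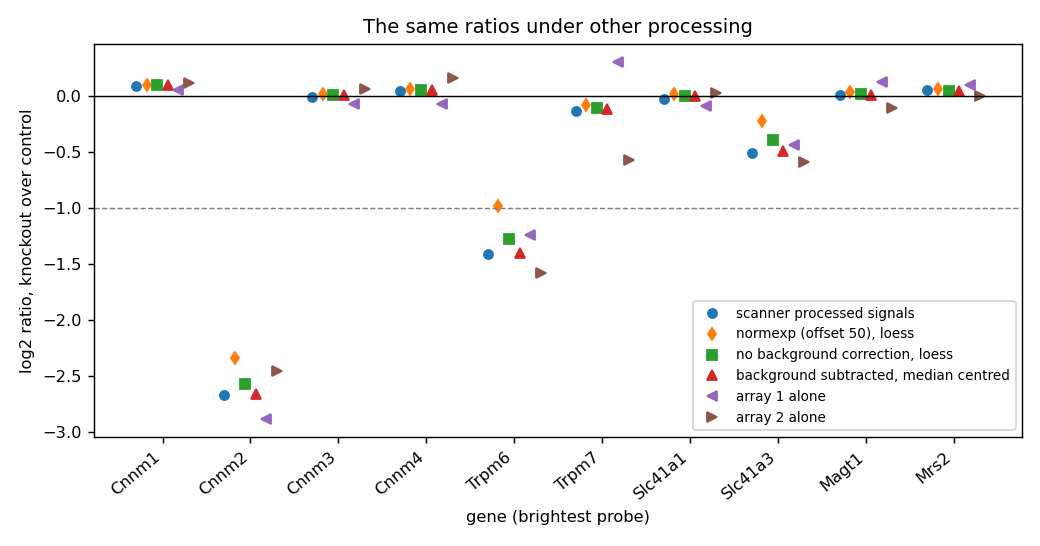
Log2 ratio of knockout over control for the brightest probe of each of the 10 genes under the scanner's processing, under 3 other corrections and on each array alone, with a dashed line at 2-fold lower. *Trpm6* lies between -1.58 and -0.98 and *Slc41a3* between -0.58 and -0.22, while the points of *Trpm7* lie on both sides of 0.

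The genes that surround these transporters were examined as 4 lists of 43 names, which hold both *Rack1* and *Msrb1* and the older names of these genes on the array, *Gnb2l1* and *Sepx1*. Values were found for 40 names, and 38 genes were well above background. Of these 38 genes, 10 (26.3%) were lower on both arrays and 3 (7.89%) were higher on both, against 15.6% and 12.1% of all genes tested. None was 2-fold changed in either direction, and the median log2 ratio was -0.054.

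Over all genes tested, 15.6% were lower on both arrays and 12.1% were higher on both. Among the partners of CNNM proteins, 0 of 4 genes were lower on both arrays and 1 was higher on both. That gene was *Arl15*, a small GTPase that binds CNNM proteins, which was read at 1534 in the knockout and 1290 in the control on array 1, and at 1330 and 1072 on array 2. Its mean log2 ratio of 0.28 ± 0.04 (SD of 2 arrays) was the highest of the 38 genes. The phosphatases *Ptp4a1*, *Ptp4a2* and *Ptp4a3*, known as PRL proteins, bind CNNM proteins and regulate them. They gave opposite directions on the arrays, with means of 0.02, 0.04 and -0.20.

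Among the regulators of TRPM6, *Egf*, the growth factor that stimulates the channel, was read at 34179 in the knockout and 30676 in the control on array 1, and at 24663 and 33841 on array 2. Its direction changed between the arrays, and its mean log2 ratio of -0.15 ± 0.43 (SD of 2 arrays) was the lowest of the 5 genes. The highest was *Phb2*, a repressor of estrogen receptor activity that has been tied to TRPM6, at 0.03 ± 0.03. *Egfr*, the receptor of EGF, was at 0.01 ± 0.37, with 0.27 on array 1 and -0.25 on array 2. The part of these regulators in the *Trpm6* value was not tested.

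Over all genes tested, 15.6% were lower on both arrays and 12.1% were higher on both. Of the 14 further magnesium transporters above background, 3 (21.4%) were lower on both arrays and 0 were higher. The lowest was *Mmgt2*, a membrane magnesium transporter, at -0.17 ± 0.03, and the highest was *Zdhhc13*, at 0.21 ± 0.94. *Slc41a2*, the remaining carrier of the SLC41 family, was read at 1041 in the knockout and 782 in the control on array 1, and at 861 and 940 on array 2. Its mean log2 ratio was 0.14 ± 0.38 (SD of 2 arrays) with opposite directions, so of the 3 SLC41 genes *Slc41a3* was the one that was lower on both arrays.

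Of the 15 genes of renal magnesium reabsorption that were well above background, 7 (46.7%) were lower on both arrays and 1 (6.67%) was higher. For all genes tested these shares were 15.6% and 12.1%. *Kcnj1*, *Bsnd* and *Kcnj10* code for potassium channels and a chloride channel subunit of the distal nephron. They were among the lower ones, at -0.37 ± 0.30, -0.22 ± 0.005 and -0.24 ± 0.07 (SD of 2 arrays). Other genes of the list had opposite directions on the arrays, such as the potassium channel gene *Kcnj16* at -0.02 ± 0.07 and *Slc12a1* at 0.16 ± 1.11. *Cldn16*, which forms the paracellular magnesium pathway of the thick ascending limb together with *Cldn19*, was at -0.07 ± 0.54 with opposite directions, and *Cldn19* was at -0.06 ± 0.01. The highest was *Pcbd1*, at 0.20 ± 0.08.

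Since *Trpm6* is a gene of the DCT, the markers of that segment were read beside it. Over all genes tested, 15.6% were lower on both arrays, 12.1% were higher on both and 0.284% were at least 2-fold lower. This list, like the others, was chosen with earlier results of these arrays known, so its shares describe the list and do not test the segment. Of 12 markers, 6 (50%) were lower on both arrays and 1 (8.33%) was higher, with a median log2 ratio of -0.31, and 2 were at least 2-fold lower. The 2 genes at least 2-fold lower were *Pvalb*, a calcium-binding protein of the early DCT, at -1.75 ± 0.33, and *Calb1*, a calcium-binding protein of the late DCT and connecting tubule, at -1.01 ± 0.34. *S100g*, another calcium-binding protein, was at -0.51 ± 0.0012. *Slc12a3*, the sodium chloride cotransporter that defines the segment, was at -0.30 ± 0.68 and had opposite directions on the arrays. *Sgk1*, a kinase gene that is induced by aldosterone, was the one marker higher on both arrays, at 0.53 ± 0.20. How far any of the 12 markers, lower or higher, is limited to the DCT was not measured here. Summed over the 12 markers, the knockout signal of 70593 compared with 95393 in the control on array 1, and 50500 compared with 71047 on array 2. Most of each sum came from *S100g* alone, with 43422 in the knockout and 62024 in the control on array 1. On array 2 *S100g* was read at 28307 and 40387, so the sums do not describe the segment as a whole. None of the 12 was at 0, and all were well above background in at least 1 genotype. The part of these markers in the *Trpm6* value was not tested.

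Marker lists of other cell types also differed between the RNA samples. The counts below compare with 15.6% of all genes tested that were lower on both arrays and 12.1% that were higher on both. All 5 urothelium markers were higher in the knockout on both arrays, with a median log2 ratio of 0.62, a summed signal of 2447 against 1762 in the control on array 1 and of 2100 against 1409 on array 2, and none at 0. Of the podocyte markers 4 of 5 were lower on both, with a median of -0.32 and a summed signal of 9947 against 13730 in the control on array 1 and of 8326 against 9140 on array 2. Of the collecting duct markers 5 of 8 were lower on both, with a median of -0.18, while their summed signal was 35913 against 43862 on array 1 and 36319 against 33506 on array 2. The medians of the proximal tubule, thick ascending limb, immune cell, red blood cell, perirenal fat and adrenal markers lay between -0.21 and -0.02, and 3 of the 5 adrenal markers were not well above background. The part of these lists in the values of *Trpm6* and *Slc41a3* was not tested.

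**Figure D5:**
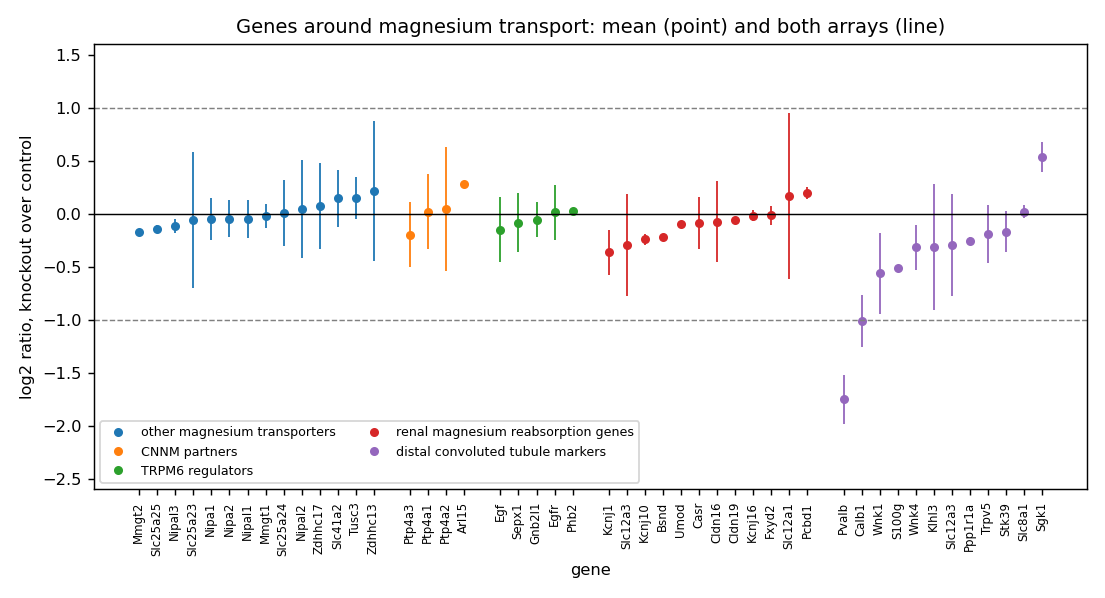
Log2 ratio of knockout over control of genes in 4 magnesium lists and of the markers of the distal convoluted tubule, with the mean of both arrays as a point and the range of the arrays as a line, and dashed lines at a 2-fold difference. *Pvalb* and *Calb1* have means beyond 2-fold lower, *Sgk1* and *Arl15* are higher on both arrays, and in the magnesium lists no mean reaches 2-fold (*Slc12a3* is in 2 of the lists).

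The genes nearest to *Trpm6* in the plane of both arrays, by the straight distance between their log2 ratios and among genes above background in both genotypes, were *Cmya5* (mean -1.15), *Notch1* (-1.15), *Gm4077* (-1.17), *B020031M17Rik* (-1.07) and *Olfr1372-ps1* (-1.20). Their distances were 0.391 to 0.474, and by the means given all 5 had a smaller difference than *Trpm6*. This likeness rests on 2 values per gene and describes these arrays only.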

How the data were processed

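The authors deposited signal intensity of each channel from Agilent Feature Extraction 10.7.3.1 per the file headers (the submitters' processing notes name 10.5.1.1), uncorrected and as processed signals corrected for background and dye within each array, together with the log10 ratio of red over green. A matrix of log10 ratios deposited by the authors was within 0.00492 of the scanner's. Here, processed signals were taken to log2 and turned to knockout over control from the labelled dyes. Control spots and 141 and 175 spots marked as outliers were left out, spots of a probe were averaged, and the probe with the highest mean signal stood for a gene. Genes were counted by a mean log2 ratio of 1 or more in size, with the same direction on both arrays. Members and lists were chosen with earlier results of these data known. Every probe of the 10 genes is named, and of the magnesium and DCT lists mostly the highest, the lowest and any gene at least 2-fold changed; the other genes named from the lists, and the 5 nearest genes, illustrate them. The remaining list genes are counted only, and a few items are not reported here. The methods' t-test (threshold of 0.1) and limma 3.58.1 (Benjamini-Hochberg, 0.05) were alternatives. Arrays have no read depth, and precision is limited by their number. The code was tested on simulated data. Python 3.11.15 (numpy 2.4.6, pandas 2.3.3) and R 4.3.3 were used.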

Additional observations from a re-analysis of the deposited data

How the results depend on the processing

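Of the 10 genes, *Cnnm1*, *Cnnm2*, *Trpm6*, *Slc41a3* and *Mrs2* kept their direction under all 11 alternatives of the processing. The other 5 changed sign at least on 1 array alone. Several of the 11 reuse the scanner's values and could not change a direction, and each array alone was taken with the scanner's processing only. With other corrections, *Mrs2* on array 2 was at -0.017 (normexp and loess), -0.0035 (loess alone) and -0.12 (subtracted background). *Cnnm1* on array 2 was at -0.039 with subtracted background. With normexp and loess, *Cnnm2* was at -2.34, *Trpm6* at -0.98 and the median of the 8 other genes at 0.034, and 1 gene was at least 2-fold lower in place of 2; the offset added to every signal draws ratios of dim probes toward 0, and loess replaces the scanner's dye correction. In the contrast between the dyes, added after seeing the data, 0 of the 10 genes were 2-fold lower, and 0 passed the methods' t-test after Benjamini-Hochberg adjustment or limma. Over all genes, the count at least 2-fold higher was 62 and moved to 7 with normexp and loess, 12 with loess and no background correction (both replace the scanner's dye correction too), 232 without a signal limit, 37 with signal in both genotypes, 28 with 2-fold on each array, 22 by the methods' t-test, 143 in the contrast between the dyes, and 385 to 431 on 1 array alone. The count at least 2-fold lower was 56 and moved to 8, 12, 179, 27, 20, 14, 341 and 269 to 472 in the same order. After adjustment both tests gave 0 in each direction. With the 2-fold limit and an unadjusted p under 0.05 together, limma gave 56 higher and 50 lower and the methods' t-test 12 and 5. Each ratio is already a pair of genotypes within an array, which the methods' paired test uses, and no further block could be added. With 1 spot per probe and 1 replicate per genotype, differences between mice could not be estimated.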
